A study of Glycyrrhiza uralensis with 15 samples.

Results

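Droughted licorice seedlings that had received the bacterium G5 were compared with and without added silicon. The comparison covered 22654 genes, of 30197 in the deposited gene table, chosen as those with a normalised read count (CPM, scaled so that each library sums to the same total) of 1 or more in at least 3 of the series' 15 libraries. It set the 3 libraries of the G5 and silicon group (DBSi) against the 3 of the G5 group (DB), 6 of the 15 libraries. The plants were whole Glycyrrhiza uralensis seedlings aged 45 days, raised in pots of sterilized desert sand without nutrients. DB plants were droughted, with sand held at 35 to 45% of its saturation moisture, and received G5, a bacterium that the design text of the series gives as Bacillus pumilus. DBSi plants were droughted with G5 and silicon combined, with neither a moisture range nor a silicon dose stated for them in the labels. Libraries from 3 other groups entered the fit. These were watered plants at 65 to 75% moisture (CK), plants droughted at 35 to 45% with nothing added (D), and plants droughted at 35 to 45% with silicon at 2 mM (DSi). Each group had 3 libraries, named here by group and replicate, so that DB-3 is replicate 3 of DB. Whether the replicates of a group were grown in separate pots is not stated, and the spread behind each p-value may therefore be technical.

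Licorice is a legume of dry steppe and desert margins whose roots are harvested for the sweet triterpenoid glycyrrhizin. Silicon is taken up by roots as silicic acid and deposited as silica in cell walls, and it is used in crop studies of water deficit. Bacillus pumilus is a soil bacterium, strains of which live on and in roots and are used as inoculants that promote plant growth. Whole seedlings mix root, stem and leaf, so fewer cells of a type and less RNA per cell cannot be told apart in these values. The deposited tables carry gene and isoform IDs without names, so genes are given by ID and no role is assigned to any of them.

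The 6 libraries held 3221579 to 3506836 reads assigned to genes, and a single read was worth 0.285 to 0.310 CPM. Spearman correlations across genes ran from 0.921 to 0.948 among the DB libraries, from 0.934 to 0.951 among the DBSi libraries, and from 0.895 to 0.937 between the groups. DB-3 stood apart from DB-1 and DB-2. It had reads for 23011 genes, against 24293 and 24586, and its score on the second principal component, which held 16.6% of the variance, was -75.21 against -5.72 and 14.75. No pair of libraries within a group agreed within sampling noise (chi-square per degree of freedom 9.23 or more, where 1 is sampling noise alone).

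With silicon added, 503 genes rose and 51 fell, 554 genes or 2.45% of those tested. Rises made up 2.22% of the tested genes and falls 0.225%. These calls came from limma's moderated test on log2(CPM + 1) over all 15 libraries, at an adjusted p under 0.05. The rises were also the larger changes, with a median log2 difference of 1.88 and a middle range of 1.35 to 2.45. Of the 503, 233 differed by 2 or more on the log2 scale and 60 by 3 or more. The falls had a median size of 1.24 on the same scale, and 5 of 51 reached 2. The median absolute log2 difference over all tested genes was 0.25. Without DB-3 the count was 316 (294 rises and 22 falls), without DBSi-1 365 (339 and 26), and without DBSi-3 368 (347 and 21).

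**Figure D1:**
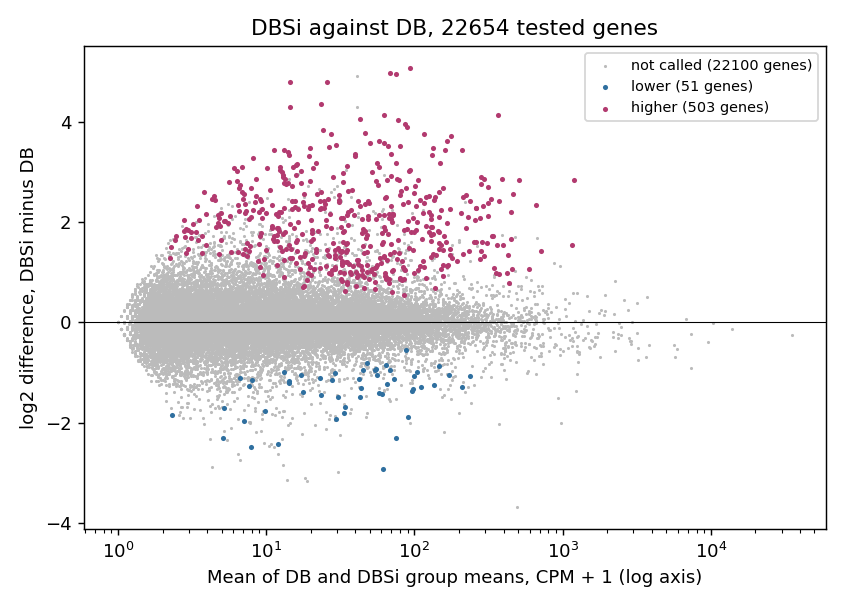
Each point is a tested gene, placed by its mean level over the DB and DBSi groups (CPM + 1, log axis) and its log2 difference, DBSi minus DB. The 503 called rises reach 5.07 and the 51 called falls reach -2.92, and few calls lie at the lowest levels.

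Means are given with the SD over 3 libraries (n = 3) throughout. In every one of the 554 called genes the DB and DBSi libraries did not overlap. Over all tested genes, DBSi lay wholly above DB in 8.89% and wholly below in 6.13%. Calls were most frequent among genes from 100 to 1000 CPM, and made up 2.30% of the 87 genes above that. They made up 0.411% of 5833 genes with a mean under 3 CPM, 1.40% of 5216 genes from 3 to 10 CPM, 2.45% of 5719 genes from 10 to 30 CPM, 4.84% of 4092 genes from 30 to 100 CPM, and 6.85% of 1707 genes from 100 to 1000 CPM. Of the 100 most abundant genes, 2 were called, both higher. The most abundant gene of all, Glyur000604s00024572, stood at 32110, 36862 and 44869 CPM in DB and 41919, 29886 and 25289 CPM in DBSi, with overlapping groups (log2 difference -0.25, SE 0.70, limma adjusted p = 0.948). The filter on low values touched few calls. Of 11 genes that reached 1 CPM in the 3 DBSi libraries and in no other, 7 were called, and these had passed the filter through the group in which they were high. Just inside the filter lay 574 genes with 1 CPM in exactly 3 libraries, and just outside it 769 genes with 1 CPM in exactly 2.

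The 503 rises together took a larger part of each DBSi library. They held 1.82%, 1.90% and 1.48% of the reads in DB-1, DB-2 and DB-3, and 6.70%, 5.84% and 6.26% in DBSi-1, DBSi-2 and DBSi-3. These sums describe genes chosen for their difference between the same libraries. The other groups were not compared in choosing them, though their libraries entered the filter and the shared estimate of the spread. CK and D stood near DB. The share was 1.53%, 1.96% and 1.53% in the CK libraries and 1.54%, 1.65% and 1.69% in the D libraries. In DSi it was 3.01% in DSi-1 and 1.72% and 1.71% in DSi-2 and DSi-3, so that a single DSi library lay between DB and DBSi. DBSi had the highest mean of the 5 groups for 499 of the 503 genes, against 21.2% of all tested genes. Within DB, DB-3 was the lowest library for 321 of the 503 genes (63.8%), against 49.3% of all tested genes. The counts of 499 and 321 use the libraries that chose the genes, so they are partly built in. All tested genes, which were not chosen in this way, are not a like baseline for them.

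**Figure D2:**
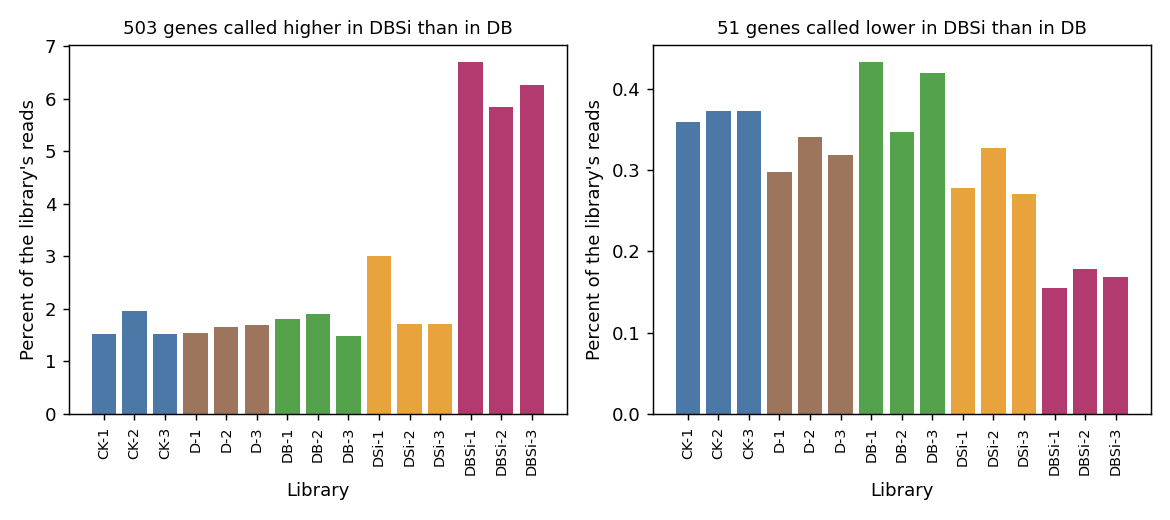
Bars give the percent of each library's reads held by the 503 genes called higher (left) and the 51 called lower (right) in DBSi than in DB. The left bars reach 5.84 to 6.70% in DBSi and stay at 3.01% or below in the other 12 libraries, and the right bars are lowest in DBSi, at 0.154 to 0.178%.

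The largest rise was that of Glyur000036s00004638. It stood at 5.38, 4.3 and 3.41 CPM in DB and 197, 209 and 135 CPM in DBSi. The groups were far apart, a 41.3-fold difference of means (log2 difference 5.07, SE 0.46, limma adjusted p = 0.000197). CK and D libraries lay between 3.56 and 6.68 CPM, close to DB, and DSi-1 reached 29.6 CPM beside 4.50 and 9.64 CPM in DSi-2 and DSi-3. Glyur000340s00024368 gave 2.69, 4.3 and 2.48 CPM in DB and 189.6, 111 and 96.8 CPM in DBSi, 42-fold higher (log2 difference 4.97, SE 0.72, limma adjusted p = 0.00179). Its D libraries were uneven, with 35.2 CPM in D-3 and 7.45 or less in the others. Glyur000195s00012851 gave 4.48, 3.68 and 2.79 CPM and 193, 123 and 118 CPM, 39.6-fold higher (log2 difference 4.95, SE 0.91, limma adjusted p = 0.00775). Its lowest DBSi library was above every other library in the series, the nearest being DSi-1 at 60.0 CPM.

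Several of the large rises started from almost no reads. Glyur006359s00047467 had 0.299, 2.46 and 0 CPM in DB, 9 reads in all, and 76, 29.4 and 40.3 CPM in DBSi, 52.9-fold higher (log2 difference 4.80, SE 0.56, limma adjusted p = 0.000653). Glyur000181s00013110 had 4 reads over the DB libraries and 267 over the DBSi libraries, a mean of 0.407 ± 0.47 CPM against a mean of 26.5 ± 8.5 CPM, 65.2-fold higher (log2 difference 4.30, SE 0.57, limma adjusted p = 0.00133). Glyur000786s00023859 had a mean of 1.32 ± 1.1 CPM in DB and a mean of 43.4 ± 6.1 CPM in DBSi, 32.8-fold higher (limma adjusted p = 0.0027). In each of these 3 genes every DB library was at 2.46 CPM or below and every DBSi library at 18.9 CPM or above. Glyur006114s00045327 had no read in any DB library and 25.8, 22.5 and 32 CPM in DBSi, at least 29.2-fold higher when each DB library is set to a floor of 3 reads (log2 difference 4.78, SE 1.2, limma adjusted p = 0.0463). It was not a gene of DBSi alone, since D ran from 6.91 to 32.5 CPM, and DSi-1, CK-2 and CK-3 were at 0. Its call was lost without any 1 of DSi-2, the 3 D libraries, the 3 DB libraries and the 3 DBSi libraries (adjusted p 0.0511 to 0.159).

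The remaining large rises began at higher levels. Glyur000137s00013353 stood at 6.58, 4.6 and 6.21 CPM in DB and 109.9, 114 and 129 CPM in DBSi, 20.3-fold higher (log2 difference 4.14, SE 0.57, limma adjusted p = 0.00133) and with DBSi libraries close together. Glyur001052s00025687 rose 18.8-fold, from a mean of 4.24 ± 2.5 CPM to a mean of 79.7 ± 10.01 CPM, with an adjusted p of 0.00174 in limma. Glyur000098s00007983 rose 13.1-fold from uneven DB values, 52.6, 93 and 9 CPM, to 699, 419 and 911 CPM (log2 difference 4.13, SE 0.70, limma adjusted p = 0.00435). DB-3 was its lowest library, and DSi-1, at 559 CPM, lay inside the DBSi range while DSi-2 and DSi-3 were at 150.1 and 169 CPM. Of the 10 largest rises, 9 kept their call in each of the 27 alternative fits, Glyur006114s00045327 being the exception.

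Abundant transcripts rose as well, by smaller factors. The most abundant was Glyur000045s00009984, at 301, 372 and 224 CPM in DB and 2202, 1844 and 2229 CPM in DBSi, 7-fold higher (log2 difference 2.83, SE 0.45, limma adjusted p = 0.0031). Glyur002071s00034582 was very even in DB, at 583, 595 and 549 CPM, and reached 2284, 1409 and 1483 CPM in DBSi, 3-fold higher (log2 difference 1.55, SE 0.26, limma adjusted p = 0.0043). Glyur000015s00000795 rose 5.06-fold, from a mean of 218 ± 32 CPM to a mean of 1105 ± 44 CPM (limma adjusted p = 0.0115). All 3 DBSi libraries of each of these genes were more than 2-fold above the highest DB library. Glyur000187s00024034 rose 7.14-fold to a mean of 883 ± 193 CPM, Glyur000927s00024255 2.62-fold to 1037 ± 50.0 CPM (SD, n = 3), and Glyur000152s00012704 2.1-fold to a mean of 807 ± 91 CPM, with limma adjusted p of 0.00233, 0.00245 and 0.0108. Of the 6 genes, Glyur000015s00000795 lost its call without DB-3 (adjusted p = 0.0591) and Glyur000152s00012704 without DBSi-1 (adjusted p = 0.0563).

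**Figure D3:**
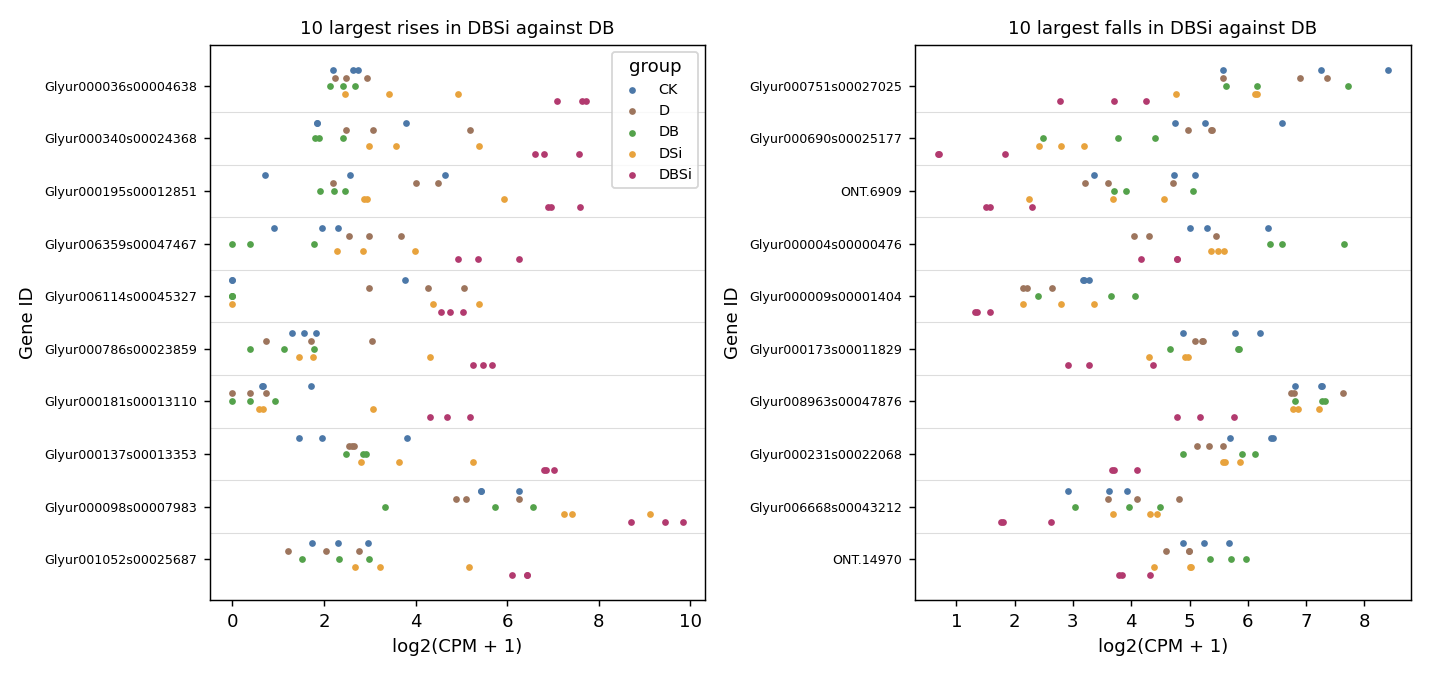
Each point is a library, placed by log2(CPM + 1) of the gene named on the vertical axis and coloured by group, for the 10 largest called rises (left) and falls (right). In the left panel the DBSi points of the first gene lie at 135 to 209 CPM and its other 12 libraries at 29.6 CPM or below, and the groups are closer together in the right panel.

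The falls were smaller and held less firmly. Glyur000751s00027025 fell most, from 209.8, 69.98 and 48.1 CPM in DB to 12, 18 and 5.9 CPM in DBSi, 9.14-fold lower (log2 difference -2.92, SE 0.71, limma adjusted p = 0.0458). DB-1 was more than 2-fold above the other DB libraries, and the call was lost without any 1 of CK-1, D-1, D-3, DSi-2, DSi-3, the 3 DB libraries and the 3 DBSi libraries (adjusted p 0.0523 to 0.21). Glyur000690s00025177 fell 9.94-fold, from 20.3, 4.6 and 12.7 CPM to 0.601, 2.57 and 0.621 CPM (log2 difference -2.49, SE 0.51, limma adjusted p = 0.016). Its D libraries were higher than those of DB, at 41, 30.3 and 40.1 CPM, its DSi libraries, at 4.35, 8.1 and 5.93 CPM, overlapped DB, and DBSi was lowest. Its call was lost without any 1 of DB-1, DB-3, DBSi-1 and DBSi-3 (adjusted p 0.0779 to 0.0869). Glyur000004s00000476 was the reverse case, high in DB at 95.3, 82 and 201 CPM and lower in every other library, with CK-2 nearest at 80.2 CPM. It stood at 26.4, 26.5 and 17.1 CPM in DBSi and 15.5, 43.1 and 18.8 CPM in D (log2 difference -2.29, SE 0.41, limma adjusted p = 0.00626). Its call held in each of the 27 alternative fits.

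Further genes were among the 10 largest falls. Glyur008963s00047876 stood at 159, 112 and 153 CPM in DB and 26.7, 53.3 and 35.1 CPM in DBSi, 3.68-fold lower (log2 difference -1.89, SE 0.28, limma adjusted p = 0.00189). All 12 libraries outside DBSi held at least 105 CPM of it, and the DBSi libraries at most 53.3 CPM. Glyur000231s00022068 fell 3.91-fold, from a mean of 52.1 ± 21 CPM to a mean of 13.3 ± 2.5 CPM (limma adjusted p = 0.00304). The falls of Glyur000009s00001404, from a mean of 10.6 ± 5.8 CPM to a mean of 1.68 ± 0.27 CPM, and of Glyur000173s00011829, from a mean of 45.7 ± 19 CPM to a mean of 11.6 ± 7.0 CPM, had limma adjusted p of 0.0132 and 0.0203. Both calls were lost without any 1 of DB-1, DB-3, DBSi-1 and DBSi-3, with adjusted p of 0.0561 to 0.0827 for the first and 0.0913 to 0.111 for the second. Glyur006668s00043212 fell from a mean of 14.4 ± 7.2 CPM to a mean of 3.34 ± 1.6 CPM (limma adjusted p = 0.0384), and its call was lost without any 1 of CK-3, D-1, DB-2, DB-3, DSi-2, DSi-3, DBSi-1 and DBSi-3 (adjusted p 0.0507 to 0.158).

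Among abundant genes the falls were about 2-fold. Glyur000131s00012966 was the most even, at 191, 196 and 179.7 CPM in DB and 97.6, 95.8 and 116 CPM in DBSi, 1.83-fold lower (log2 difference -0.87, SE 0.15, limma adjusted p = 0.0045). Glyur001221s00033771 fell from a mean of 321 ± 69 CPM to a mean of 151 ± 10.31 CPM, Glyur000107s00007209 from a mean of 229 ± 28 CPM to a mean of 112 ± 23 CPM, and Glyur000027s00001554 from 298 ± 100.2 CPM (SD, n = 3) to a mean of 119 ± 31 CPM. Their limma adjusted p were 0.0172, 0.011 and 0.0495, and each lost its call without some library. The libraries were DB-1, DB-3, DBSi-1 and DBSi-2 (adjusted p 0.0616 to 0.1) for the first, DB-1, DB-3 and DBSi-2 (adjusted p 0.054 to 0.0613) for the second and D-1, D-3, DB-1, DB-2, DSi-1, the 3 CK libraries and the 3 DBSi libraries (adjusted p 0.0519 to 0.217) for the third. Of the 10 largest and the 4 most abundant falls, 4 and 1 kept their call in each of the 27 alternative fits.

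Most IDs in the gene table begin with Glyur, and 2722 begin with ONT; how the latter were assigned is not given in the sources used here. ONT loci were 31 of the 503 rises (6.16%) and 6 of the 51 falls (11.8%), against 10.2% of all tested genes. ONT.5823 rose 13.4-fold, from 6.58, 11.4 and 5.9 CPM to 85, 122 and 112 CPM (log2 difference 3.62, SE 0.55, limma adjusted p = 0.00251). ONT.1281 rose 10.3-fold, from a mean of 12.1 ± 7.7 CPM to a mean of 125 ± 53 CPM (limma adjusted p = 0.00403). ONT.14766 had reads in a single DB library, at 1.49 CPM, and stood at 12.3, 6.27 and 15.2 CPM in DBSi (limma adjusted p = 0.002). The naming rule required every DBSi library of these 3 loci to be above every DB library. For ONT.14766, DSi-1, at 7.15 CPM, was above the lowest DBSi library. Of the falls, ONT.14970 went from a mean of 50.9 ± 11 CPM to a mean of 15.1 ± 3.3 CPM (limma adjusted p = 0.00202), with groups well apart. ONT.6909 went from a mean of 19.4 ± 11 CPM to a mean of 2.59 ± 1.1 CPM (limma adjusted p = 0.0492), a call lost without any 1 of CK-1, D-1, D-2, DSi-3, the 3 DB libraries and the 3 DBSi libraries (adjusted p 0.0513 to 0.217).

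Silicon was also given to droughted plants without G5, and that step, DSi against D, compared none of the DB or DBSi libraries. Its calls share the estimate of the spread with those of DBSi against DB. Of the 503 genes that rose with silicon under G5, 420 (83.5%) were higher in DSi than in D, against 59.0% of all tested genes. Their median log2 difference was 0.35 there, against 0.07 over all tested genes and 1.88 in DBSi against DB. None of the 503 was called in DSi against D, where limma called 6 genes, 0.0265% of those tested (0.0177% higher and 0.00883% lower). At an unadjusted p under 0.05, 108 of them were higher in DSi and 7 lower, against 1296 and 507 of all 22654 genes (7.96% in all). The difference was largest in DSi-1. Measured from the D mean, the median over the 503 genes was 0.84 in DSi-1 and 0.16 in both DSi-2 and DSi-3, and over all tested genes it was 0.09, 0.04 and 0.09. DSi-1 was the highest DSi library for 433 of the 503 genes (86.1%), against 36.0% of all tested genes. Every DSi library was above every D library in 112 of the 503 (22.3%), against 9.37% of all tested genes. Without DSi-1 the median difference was 0.13, and without DSi-2 or DSi-3 it was 0.48 or 0.50. What sets DSi-1 apart was not tested.

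Single genes showed how the DSi libraries were placed. Of 19 named rises (the 10 largest, the 6 most abundant and 3 ONT loci), 18 had their highest DSi value in DSi-1, against 36.0% of all tested genes, and 18 had DSi-1 above every D library, against 32.3%. DSi-2 and DSi-3 were both above every D library in 5 of the 19, against 12.9%. Over all 503 rises, to which the 19 belong, these 3 shares were 86.1%, 82.5% and 22.5%. For Glyur000045s00009984, the DSi libraries gave 821, 276 and 303 CPM and the D libraries 170.0, 187 and 259 CPM. For Glyur000187s00024034 they gave 273, 97.2 and 95.5 CPM beside 98, 84.2 and 128 CPM. In both genes DSi-2 and DSi-3 lay close to D while DSi-1 was raised. Of the 51 falls, 28 were lower in DSi than in D, and 45.1% were higher, against 59.0% of all tested genes. Their median log2 difference was -0.05 (between -0.15 and 0.01 with any single D or DSi library left out), against 0.07 over all tested genes. Measured from the D mean, their median was -0.19 in DSi-1, 0.16 in DSi-2 and -0.13 in DSi-3, and DSi-1 was the lowest DSi library for 23 of the 51 (45.1%), against 28.5% of all tested genes.

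**Figure D4:**
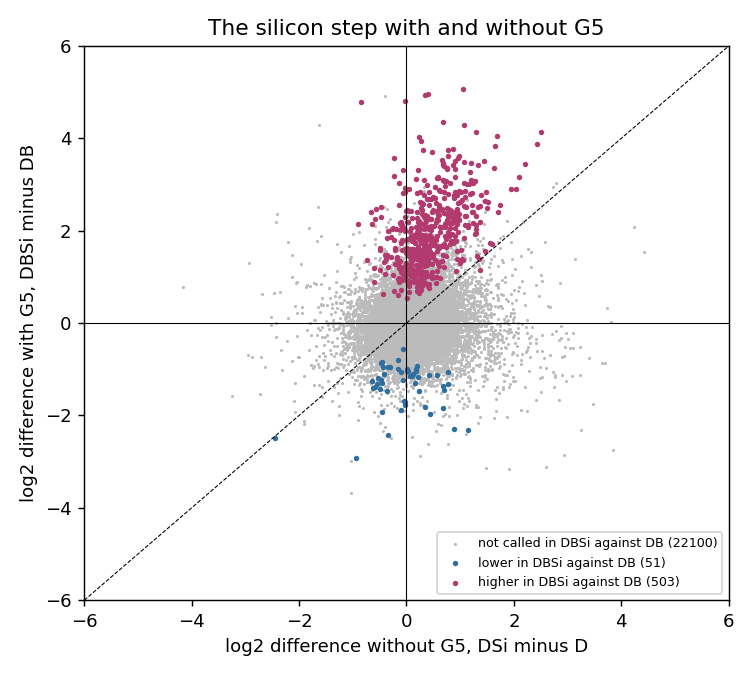
Each point is a tested gene, placed by its log2 difference between DSi and D (horizontal) and between DBSi and DB (vertical), with the dashed line marking equal differences. The 503 rises centre on 0.35 across and 1.88 up, and the 51 falls on -0.05 across and -1.24 up.

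Whether the silicon difference itself differed between plants with and without G5 was tested as (DBSi - DB) - (DSi - D) in the same fit. The test takes the moisture and the silicon dose of DBSi to match those of DB and DSi. limma called 30 genes, 0.132% of those tested, 23 positive (0.102%) and 7 negative (0.0309%), and 7.78% of tested genes had an unadjusted p under 0.05. This contrast holds the DB and DBSi libraries too, so its calls are not separate evidence for genes called in DBSi against DB. Glyur000744s00021936 gave 5.08, 9.21 and 10.2 CPM in DB and 178, 125 and 132 CPM in DBSi, and 13.5, 14.8 and 20.4 CPM in D beside 38.9, 12.6 and 13.8 CPM in DSi. DBSi was far above the rest, and DSi overlapped D (interaction 3.78, SE 0.55, limma adjusted p = 0.0267). Positive interactions of 4.83 and 4.02 were called for Glyur006359s00047467 and Glyur000036s00004638 (SE 0.80 and 0.64, limma adjusted p = 0.039 for both).

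Of the 7 genes with negative interactions, 3 were also called lower in DBSi than in DB, and only these could be named. All 3 had their highest mean of the 5 groups in DB, which this choice made likely. Glyur000096s00005905 stood at 65.8, 111 and 124 CPM in DB and 43.6, 48.2 and 40.03 CPM in DBSi, and at 44.4, 38.5 and 36.5 CPM in D and 52.6, 73.5 and 54.2 CPM in DSi. Its DSi libraries were all above its D libraries, and its DBSi libraries all below its DB libraries (interaction -1.70, SE 0.30, limma adjusted p = 0.0497). Glyur000624s00026886 gave 43, 23.3 and 34.1 CPM in DB and 12.3, 8.27 and 14.3 CPM in DBSi, with an interaction of -2.14 (SE 0.36, limma adjusted p = 0.0397), and Glyur001221s00033771 had an interaction of -1.83 (limma adjusted p = 0.0457). Each of the 6 named genes lost its interaction call in 10 to 21 of the 27 alternative fits. The 6 were chosen by size of the interaction, not by p. The lowest limma adjusted p, 0.00687, belonged to 2 genes outside them, Glyur000190s00015737 and Glyur001820s00032857 (interaction 3.38 and 3.05, SE 0.39 and 0.36). How these 2 fared in the alternative fits is not given here. Leaving out DSi-1, the library that lay between D and DBSi, raised the interaction calls from 30 to 144. Leaving out D-1 or D-2 gave 2 calls, as did leaving out DSi-2 or DSi-3, and DBSi-1 or DBSi-2. The number was 10 when D-3 was omitted and 18 when CK-1 was. Omitting DB-1 gave 6, omitting DB-2 gave 5, and omitting DB-3 gave 11.

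Drought alone, D against CK, compares no library of DBSi or DB, though its calls share their estimate of the spread. limma called 11 genes in it, all lower in D, 0.0486% of those tested, and none of the 554. The 503 genes that rose with silicon had a median log2 difference of -0.04 there, against -0.07 over all tested genes, and 44.9% of them were higher in D, against 41.3%. With the D or CK libraries left out 1 at a time this median ran from -0.10 to 0.02. The 51 genes that fell had a median of -0.28, and 12 of them were higher in D and 39 lower. At an unadjusted p under 0.05, 11 of the 51 were lower in D and 0 higher, against 1374 and 432 of all 22654 genes (7.97% in all), and of the 503, 40 were lower and 21 higher.

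The libraries were described as nanopore reads of full-length cDNA, and the authors deposited a table of isoforms beside that of genes. Isoforms were joined to genes by shared ID or by equal read numbers in all 15 libraries, which resolved 29088 of 30197 genes. Among 35504 tested isoforms, limma called 795 between DBSi and DB, 2.24%, of which 705 were higher and 90 lower. At least 1 higher isoform was called in 426 of the 503 genes that rose, of which 469 had joined isoforms. At least 1 lower isoform was called in 32 of the 51 that fell, of which 46 had joined isoforms. Over all 21659 tested genes with joined isoforms, these numbers were 514 and 77. No called isoform moved against the call of its gene. A joined gene's reads are the sum of its isoforms' reads, and 251 of the 469 had 1 tested isoform. Agreement between the calls was therefore largely fixed in advance. Of 282 called genes with more than 1 isoform, 254 (90.1%) had the same leading isoform in DB and DBSi, against 93.7% of 10633 tested genes. The isoform count was 398 without DB-3 and 495 to 528 without DB-1 or any DBSi library.

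The gene Glyur000744s00021936, which rose 17.8-fold, had an isoform that was not seen in DB. ONT.14235.7 had no read in any DB library and 54.1, 46.5 and 29.5 CPM in DBSi, where it made up 30.4%, 37.1% and 22.3% of the gene's reads. It was at least 47.3-fold higher against a floor of 3 reads per library (limma adjusted p = 0.0028). CK-1, CK-3 and D-2 were also at 0, and the other CK, D and DSi libraries were at 10.8 CPM or below. The gene Glyur000916s00027860, which was not called between DBSi and DB, had an isoform that went the other way. ONT.15300.4 went from 23.9, 39 and 30.1 CPM in DB, 50.0%, 62.0% and 40.6% of the gene's reads, to no read in DBSi (at least 34.6-fold lower, limma adjusted p = 0.00356). Its D libraries were uneven, at 0, 7.24 and 22.2 CPM, so a library without it was not found in DBSi alone. ONT.7818.2, which was not joined to a gene, went from 27.5, 30.1 and 19.6 CPM to no read (at least 28.7-fold lower, limma adjusted p = 1.31e-05), and averaged 29.4 to 31.7 CPM in CK, D and DSi. These 3 calls held without any single library. ONT.3265.2 rose from 0, 10.7 and 0 CPM to 122, 90.1 and 174 CPM (limma adjusted p = 0.0485), and ONT.5806.3 fell from 86.4, 60.5 and 15.8 CPM to no read (limma adjusted p = 0.0277). Their calls were lost without any 1 of D-2, DB-1, DB-3, DSi-3, the 3 CK libraries and the 3 DBSi libraries (adjusted p 0.0657 to 0.197) and of DB-1, DB-2 and the 3 DBSi libraries (adjusted p 0.0833 to 0.118). In D-3, ONT.3265.2 stood at 63.5 CPM and ONT.5806.3 at 0.

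Isoform use is the division of a gene's reads among its isoforms. A difference between DBSi and DB was called at 77 of 7187 loci with more than 1 tested isoform, 1.07%. These calls came from the diffSplice F-test in limma, at an adjusted p under 0.05. The count was 50 without DB-3. The test compares log2(CPM + 1) differences among a gene's isoforms, not their shares. That scale understates differences of low isoforms, so a call can arise without a change in shares. How often it did was not tested. Of the 77, 31 (40.3%) were also called as genes, against 3.30% of the 7187 loci, and 46 were not. Both tests used the same reads. Glyur000023s00004900 was among the former. Its gene level rose from 80.4, 94.8 and 80.1 CPM in DB to 453, 332 and 324 CPM in DBSi (log2 difference 2.09, SE 0.25, limma adjusted p = 0.00073). The rise lay in isoform ONT.1583.1, which went from 59.1 ± 0.78% of the gene's reads to 94.0 ± 1.9% (SD, n = 3), while ONT.1583.4 was at 32.3, 39 and 32.3 CPM in DB and 17.7, 24.2 and 21.4 CPM in DBSi (limma adjusted p = 0.303). The locus had an adjusted p of 6.14e-05 in diffSplice.

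At 2 other loci the gene level was close to equal in DB and DBSi while the makeup by isoform differed. Glyur001272s00032529 totalled 269.9, 231 and 229 CPM in DB and 267, 253 and 242 CPM in DBSi (log2 difference 0.07, SE 0.14, limma adjusted p = 0.928). Its isoform ONT.16968.1 had 497 reads in DBSi, at 24.6, 40.5 and 84.7 CPM, and 0 reads in the other 12 libraries. ONT.16968.9 went from 103, 85 and 94.7 CPM in DB to 67, 57.3 and 0 CPM in DBSi, a difference that did not pass the test (limma adjusted p = 0.385). It stayed above ONT.16968.1 in DBSi-1 and DBSi-2 and had no read in DBSi-3, where ONT.16968.1 was highest. The sum of both isoforms was 103, 85.0 and 94.7 CPM in DB and 91.6, 97.8 and 84.7 CPM in DBSi, and the groups overlapped. At Glyur000279s00013255, isoform Glyur000279s00013255.1 was at 0 in DB and 9.01, 26.8 and 25.1 CPM in DBSi, and ONT.9303.3 was at 29.3, 28.5 and 22.3 CPM in DB and 11.7, 0 and 0 CPM in DBSi, still the higher of the pair in DBSi-1. Both passed the test (limma adjusted p = 0.00137 and 0.0184). Their sum was 29.3, 28.5 and 22.3 CPM in DB and 20.7, 26.8 and 25.1 CPM in DBSi. The diffSplice adjusted p were 3.93e-07 and 9.41e-07. In 10 of the 77 loci an isoform had no read in 1 of the groups DB and DBSi and a mean of 10 CPM or more in the other. The same was not counted over all 7187 tested loci, so this number does not set the called loci apart. How reads were assigned among near-identical isoforms is not given in the sources used here, and its part in these differences was not tested.

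Glyur000237s00014406 divided its reads among 8 tested isoforms. Its leading isoform ONT.8535.5 went from 71.3 ± 8.1% of the gene's reads in DB to 42.0 ± 9.5% in DBSi (SD, n = 3), while its level was 88.2, 93.9 and 50.3 CPM in DB and 66.7, 111 and 107 CPM in DBSi, with overlapping groups. Of its other isoforms, 4 rose. The largest rise in CPM was that of ONT.8535.1, from a mean of 14.6 ± 1.6 CPM to a mean of 54.8 ± 26 CPM (limma adjusted p = 0.00946). In DBSi-1 it stood at 84.4 CPM and led the gene, with ONT.8535.5 at 66.7 CPM. The share of ONT.8535.1 was 40.5%, 18.2% and 16.1% in DBSi and 17.7% or less in DB. Its share was thus clearly above DB in DBSi-1 alone. ONT.8535.2 went from 1.79, 0.921 and 1.24 CPM to 16.5, 24.5 and 29.8 CPM, 17.9-fold higher (limma adjusted p = 0.00776), and ONT.8535.4 from 2.39, 2.15 and 2.79 CPM to 16.5, 20.2 and 25.8 CPM, 8.53-fold higher (limma adjusted p = 0.00515). The gene as a whole was not called (log2 difference 1.09, SE 0.32, limma adjusted p = 0.122), and the diffSplice adjusted p was 2.31e-05.

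**Figure D5:**
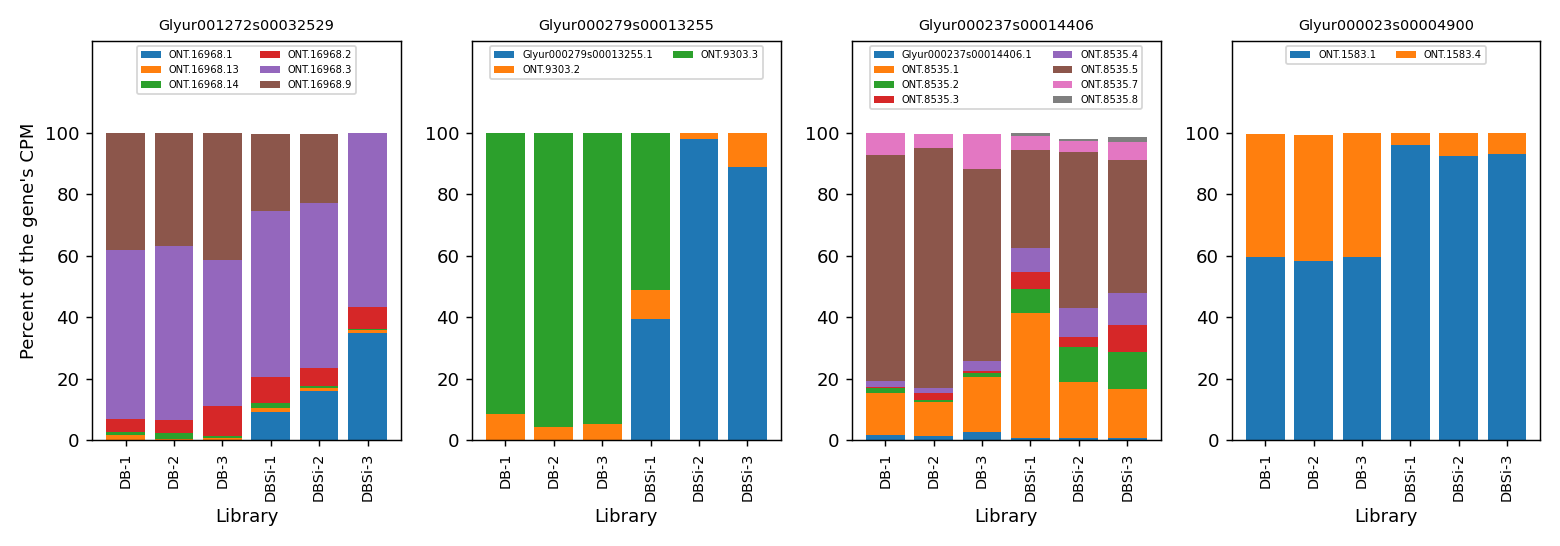
Bars divide each gene's CPM among its tested isoforms in the DB and DBSi libraries, in percent, for the 4 named loci of the isoform-use test. Isoforms below the filter are left out, so bars can end under 100%, and the leading isoform of Glyur000023s00004900 holds 58.3 to 59.7% in DB and 92.6 to 96.1% in DBSi.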

How the data were processed

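Full-length cDNA of whole seedlings was read by nanopore sequencing in 15 libraries, 3 per group. The submitters' protocol describes nanopore cDNA libraries but ends with a line on standard Illumina protocols, and the values were taken as nanopore. The authors deposited a gene table and an isoform table in CPM. Reads were aligned with minimap2, per the submitters' processing notes, with its version, the counting tool and the genome build not given in the sources used here. All CPM values were whole multiples of the value of 1 read (100% within 0.01 of a read), so reads were recovered for edgeR and DESeq2. Each nanopore read stands for a transcript, so genes were ranked by CPM without a length correction.

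Genes and isoforms with CPM of 1 or more in at least 3 libraries were tested with limma 3.58.1 (trend, R 4.3.3) on log2(CPM + 1), with all 15 libraries sharing one estimate of the spread, no covariates and Benjamini-Hochberg adjustment over all tested features at 0.05. Fold changes on that scale understate those of low genes, so folds of group means are also given. Isoform use was tested with diffSplice. SDs are over 3 libraries per group and SEs come from the fit. Isoforms were joined to genes by shared ID, or by equal reads in all 15 libraries with at least 20 reads.

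Named genes were called, had groups that do not overlap and averaged at least 10 CPM where higher. They were the 10 largest rises and falls, the 6 most abundant rises and 4 most abundant falls, 3 rises and 2 falls among ONT loci, up to 3 without a DB read, and 3 interaction genes in each direction. For isoforms these were 3 rises and 3 falls, and 4 loci of isoform use. Members, lists and rules were chosen with earlier results of these data known. Gene lists and organ markers need names that the files do not pair with IDs, and were not run. The alternatives were pseudocounts, filters, scaling, spread models, edgeR 4.0.16, DESeq2 1.42.0, a replicate block and leaving out each library. The replicate numbers were not taken to pair DB and DBSi, since deviations of same-numbered libraries correlated at 0.07, -0.22 and -0.13.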

Additional observations from a re-analysis of the deposited data

Results flagged for a closer look

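The 6 interaction genes named above passed the threshold for a silicon difference that differs between plants with and without G5, in limma's test of (DBSi - DB) - (DSi - D) on the log2 scale over the 15 libraries. The difference was larger with G5 by 4.83 for Glyur006359s00047467, by 4.02 for Glyur000036s00004638 and by 3.78 for Glyur000744s00021936, with limma adjusted p of 0.039, 0.039 and 0.0267. It was -2.14 for Glyur000624s00026886, -1.83 for Glyur001221s00033771 and -1.70 for Glyur000096s00005905, with limma adjusted p of 0.0397, 0.0457 and 0.0497. In the last 3 genes every DBSi library was below every DB library, as in all 51 called falls from which they were chosen. In the same 3 genes DSi-1 to DSi-3 were all above every D library. The contrast that chose them also holds the D and DSi libraries, so that order is partly built in too. These calls did not hold widely. Under the 27 alternatives, in the order given, the interaction call was lost in 16, 13, 10, 12, 19 and 21, and the sign changed in none. The adjusted p reached 0.0931 to 0.149, and all 6 calls were lost without a trend in the spread and with D-1 or D-2, replicate 2 or 3 of DSi, or replicate 1 or 2 of DBSi left out.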

How the results depend on the processing

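The 554 genes called between DBSi and DB numbered 437 to 766 under the other settings with all libraries (766 in DESeq2, 517 in edgeR, 437 with the compared groups alone), and 316 to 573 with any single library left out, always with more rises than falls. The interaction count of 30 moved most. It was 17 with a pseudocount of 0.5, 19 without a filter, 3 without a trend in the spread, 75 with library weights and 277 in DESeq2, and 2 to 144 with single libraries left out. The 795 isoforms numbered 458 with the compared groups alone and 398 to 815 with single libraries left out, and the 77 loci of isoform use 50 to 86. For the 51 genes that fell, the median difference of D from CK was -0.28, and it was -0.19 with median-of-ratios scaling and -0.34 to -0.15 with single libraries left out. The cause was not tested. With replicate number as a block, the gene count was 505, the interaction count 19, the isoform count 672 and the isoform-use count 71, and as the samples share only a number no pairing is read from it. Of 972 values for the 36 named genes under 27 alternatives, 871 kept their call, 101 lost it and 0 changed direction. Depth was not varied, so its part in the low share of calls under 3 CPM (0.411%) was not tested. Isoform-use alternatives and the D against CK settings were chosen after seeing the data.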

Other observations

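Isoform calls also lay in genes that were not called as a whole. Of the genes with a called isoform, 132 had no gene call between DBSi and DB, and 1 gene held isoforms called in both directions. More than 1 tested isoform was found in 46.5% of the genes that rose, 41.3% of those that fell and 33.2% of all tested genes with a joined isoform. The called genes were also more abundant, with a median of 35.2 CPM for rises and 42.5 CPM for falls, against 10.6 CPM over all tested genes. Isoforms were tested only at 1 CPM or more in at least 3 libraries, and the part of gene level in these shares was not tested.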
